A study of Mus musculus with 141 samples.

Results

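The matrix metalloproteinases (*Mmp* genes), the ADAMTS proteases (*Adamts* genes) and the tissue inhibitors of metalloproteinases (*Timp* genes) were examined in inguinal white adipose tissue (iWAT), the subcutaneous fat depot of the mouse. Every protein-coding gene whose symbol is *Mmp*, *Adamts* or *Timp* followed by a number was taken, which gave 45 of the 36558 genes listed, or 45 of 21817 protein-coding genes. These were 22 *Mmp*, 19 *Adamts* and 4 *Timp* genes. The choice used names and no measured value, though it was made with earlier results of these data known. RNA-seq had been carried out on iWAT of inbred strains from the Hybrid Mouse Diversity Panel, with 67 female and 74 male libraries from 82 strains. All mice of both sexes, with no group on another diet, received high-fat, high-sucrose food for 8 weeks, starting at an age of 8 weeks, and tissue was collected after a 4 h fast. A strain has a single library per sex, and 59 strains have both sexes. By name the strains fall into classical inbred strains (21 female and 23 male libraries), BXD (32 and 34), AXB/BXA (9 and 11), BXH (2 and 3) and CXB (3 and 3) recombinant inbred lines. The BXD lines include BXD24/TyJ-Cep290<rd16>/J, whose name carries the rd16 allele of *Cep290*. The classical strains include BTBR T<+> tf/J, whose name also carries allele symbols. Both have a female and a male library and were kept in the comparisons.

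MMPs and ADAMTSs are zinc-dependent proteases that cut collagens, proteoglycans and other parts of the extracellular matrix, and most are made as inactive precursors. Secreted MMPs include collagenases, gelatinases, stromelysins and the macrophage elastase, while the membrane-type MMPs stay on the cell surface. ADAMTSs include proteoglycanases, procollagen processing enzymes and the protease that trims von Willebrand factor. TIMPs bind the active site of these enzymes and block it. In adipose tissue the matrix around the fat cells is remodelled as they enlarge, and stromal cells, vessels, adipocytes and macrophages all contribute proteases or inhibitors.

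The libraries held 6269001 to 78562464 counts, and at the median depth 3 counts equal 0.0992 CPM (counts scaled to a common library size) by library total alone. Adipocyte markers were present throughout, with *Adipoq* between 302 and 3503 TPM (transcript abundance scaled for length and library size). The summed Y-linked signal ran against the label in the libraries labelled BXD34/TyJ female, BXD69/RwwJ female and NZW/LacJ male. The BXD34/TyJ female library was also the shallowest and had the lowest *Adipoq*. Mammary epithelial markers were higher in the female than in the male library of 58 of 59 strains, by 6.76 ± 2.18 (SD) in mean log2 CPM. Only NZW/LacJ among these 3 strains has both sexes, so only it enters the sex comparison, and its omission left 12 members lower and 13 higher in females, as with it. All 3 enter the values and correlations over the libraries of a sex, where values without them are given beside those that they moved.

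A cluster of 9 members on chromosome 9 was the clearest shared position. Between position 7272514 and 7699585 of chromosome 9 (GRCm38), a stretch of 427 kb, lie *Mmp13*, *Mmp12*, *Mmp1b*, *Mmp3*, *Mmp10*, *Mmp8*, *Mmp27*, *Mmp20* and *Mmp7*. RefSeq promoters (GRCm38.p6) were at hand for 31 of the 45 members. In the 250 bases before the start, 6 members held the AP-1 motif TGAGTCA on either strand (read as TGACTCA on the other), against 4.46% of 32851 promoters, and all 6 belong to the chromosome 9 cluster. The windows around the motif are shown because they set a shared promoter feature beside levels that ran from near 0 to among the highest of the family. The motif is in capitals and each window reads 5′ to 3′ on the strand of its gene.

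*Mmp13*, plus strand, chr9:7272467-7272496: accccaaagtggTGACTCAtcactatcatg
*Mmp12*, plus strand, chr9:7347318-7347347: tgacatcaacagTGAGTCAgatagaggatt
*Mmp1b*, minus strand, chr9:7388102-7388131: tgttacaaagccTGAGTCAtatagcctctg
*Mmp3*, plus strand, chr9:7445764-7445793: tggaagcaattaTGAGTCAgttttcgggtg
*Mmp10*, plus strand, chr9:7502267-7502296: atagcacccatgTGAGTCAtgcttagtgac
*Mmp7*, plus strand, chr9:7692015-7692044: aaagtgtgcaaaTGAGTCAcctatttccac

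The motif began 35 bases before the start in *Mmp13* and 93 bases before it in *Mmp1b*, with the other 4 in between. Over all libraries *Mmp12* averaged 84.3 TPM, *Mmp3* 44.8 TPM and *Mmp13* 1.04 TPM. *Mmp7*, *Mmp10* and *Mmp1b*, with the same letters in this window, averaged 0.139, 0.0230 and 0.00088 TPM over the same libraries. The motif was thus found beside genes with high and with near-zero levels, and a match of letters does not show that a factor binds. *Mmp8*, *Mmp27* and *Mmp20* of the same cluster did not hold these letters in this window. *Mmp12* and *Mmp1b* overlap on opposite strands.

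Inhibitors led the levels. On the TPM scale, which takes transcript length into account, *Timp3*, the inhibitor that binds to the matrix and also blocks several ADAMTSs, averaged 130 ± 58.3 TPM in females (SD, n = 67) and 141.2 ± 49.5 TPM in males (SD, n = 74). *Timp2* averaged 126.8 ± 57.7 TPM in females and 134.9 ± 57.9 TPM in males. *Timp3* was above *Timp2* in 75 libraries and under it in the rest, so their order did not exceed the spread. The highest proteases by mean TPM over all libraries were *Mmp12*, the macrophage elastase, at 84.3, *Mmp2*, a gelatinase, at 81.8, *Adamts5*, a proteoglycanase, at 69.6, *Mmp14*, a membrane-type MMP that activates proMMP2, at 59.8, and *Mmp3*, a stromelysin, at 44.8 TPM. *Timp4*, an inhibitor known for its expression in fat, averaged 63.2 TPM. *Mmp2* exceeded *Mmp12* in most libraries, since *Mmp12* was the higher of the pair in only 40 libraries. The mean of *Mmp12* is carried by a minority of strains. *Timp1*, the inhibitor that rises with inflammation in many tissues, averaged only 5.14 TPM.

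A mean over 50 TPM was found for 7 members, while 14 lay between 5 and 50, 8 between 1 and 5, and 16 at or under 1 TPM. In the order of mean TPM, a gap between neighbours exceeded the SD of their log2 difference over libraries only from *Timp2* to *Mmp12* and from *Adamts2* to *Adamts1* among the 39 tested members. The median of the mean TPM was 5.35 for the 39 tested members and 11.1 for the 16765 genes tested. Summed over genes, the mean TPM of the *Timp* genes was 311 in females and 357 in males. The *Mmp* genes summed to 332 and 381 TPM and the *Adamts* genes to 170 and 205 TPM.

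**Figure D1:**
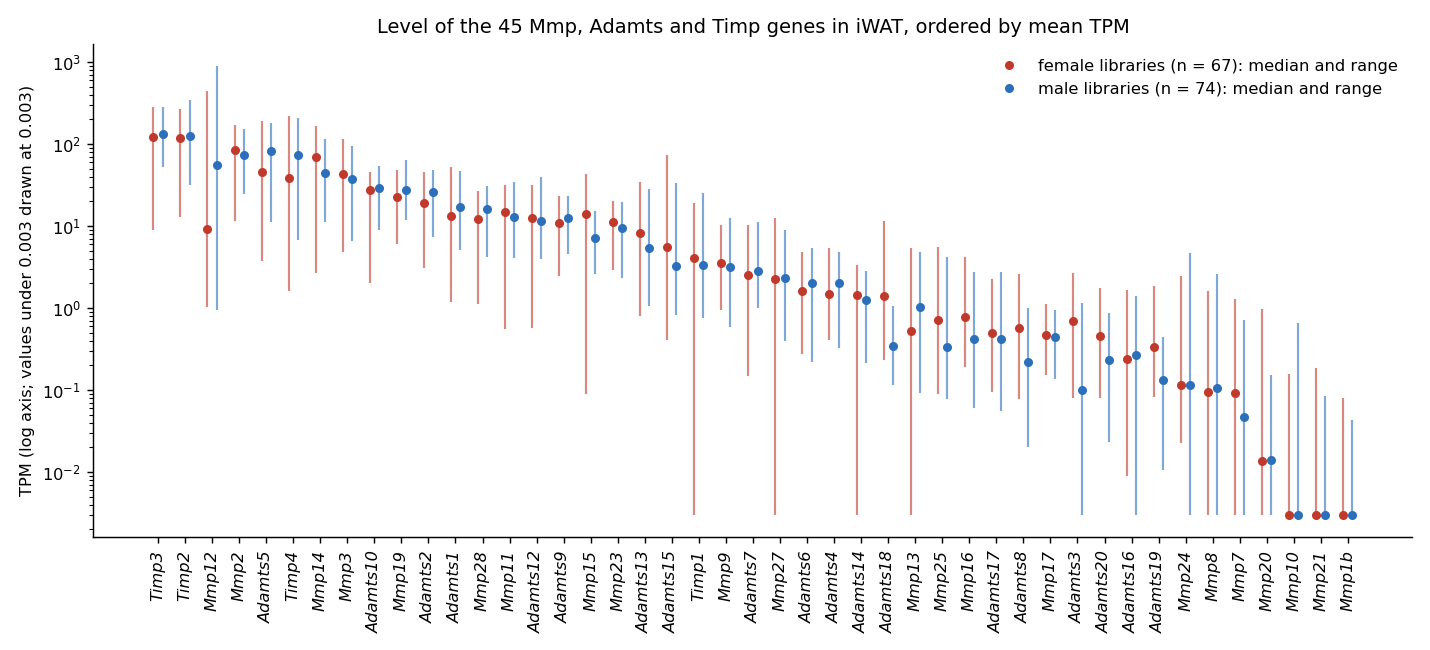
TPM of the 45 members on a log axis, ordered by mean TPM, with the median (point) and the range (line) over 67 female and 74 male libraries. *Timp3* and *Timp2* are at the upper end in both sexes, and *Mmp12* has the widest range among the high members, from 0.941 to 887 TPM in males.

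The filter on low counts removed 6 members, *Mmp8*, *Mmp7*, *Mmp20*, *Mmp10*, *Mmp21* and *Mmp1b*, which were not tested. *Mmp8*, the neutrophil collagenase, had its highest values in SJL/J, at 5.30 CPM in the male and 2.19 CPM in the female library. *Mmp7*, an epithelial matrilysin, and *Mmp20*, the enamel protease, had their highest values in the BXD34/TyJ female library, at 3.09 and 8.71 CPM. Without that library no female exceeded 0.158 CPM of *Mmp20*, and no male exceeded 0.303 CPM. *Mmp10*, a stromelysin, was without a count in 48 female and 48 male libraries and peaked in the MA/MyJ male at 0.760 CPM. *Mmp1b*, a collagenase-like gene, had a count above 0 in a single library of each sex, and *Mmp21* never exceeded 3 counts.

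Sex was compared in the 59 strains with both libraries, with strain in the model, by the quasi-likelihood F test of edgeR, with p-values adjusted by Benjamini-Hochberg over 16765 genes. A negative log2FC (female vs. male) stands for a higher level in males. Of the 39 members tested, 12 passed the threshold of 0.05 with lower values in females and 13 with higher ones. This is 64.1% of the members, beside 58.5% of all genes tested (30% lower and 28.5% higher), so being called was about as common among the members as among all genes. A call with a change of at least 2-fold was made for 7 of 39 members (17.9%) and 6.02% of all genes. The median absolute log2FC was 0.30 for the members and 0.17 for all genes, while the median signed log2FC was 0.01 for both. The filter asked for 44.3 libraries over its cutoff, counted over both sexes together. *Adamts3*, *Adamts19*, *Adamts8* and *Mmp16* reached that number in the females alone but not in the males alone (17, 30, 39 and 42 males over the cutoff). Their entry into the test leaned on the sex where they were higher, most of all for *Adamts3*, and they are among the 7. When libraries were scaled by their totals, the median log2FC of all genes moved from 0.01 to 0.12, the share of calls that were higher in females moved from 48.7% to 72.8%, and the members split into 10 lower and 17 higher. On the log2(TPM + 1) scale with limma that share was 65.04%, and 10 members were lower and 16 higher.

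Lower in females was first of all the macrophage elastase. *Mmp12* was measured at 2.38, 9.13 and 224 CPM (lowest, median, highest) in the females of the 59 strains and at 3.12, 44.97 and 873 CPM in the males. The ranges overlapped, yet 12 males lay above the highest female and the female was the higher of the pair in only 6 of 59 strains. Females averaged 28.7 ± 45.6 CPM and males 136.9 ± 185 CPM (SD over 59 strains). The log2FC was -2.14 (SE 0.25, adjusted p = 1.35e-10), which is 4.39-fold higher in males. *Mmp13*, a collagenase from the same chromosome 9 cluster, was also lower in females (log2FC -0.85, SE 0.15, adjusted p = 3.86e-06), from a low level of 1.14 ± 1.12 CPM in females and 2.08 ± 1.55 CPM in males. Its neighbour *Mmp3* differed in the opposite direction, averaging 54.1 ± 23.4 CPM for females against 46.4 ± 21.7 CPM for males (log2FC 0.26, SE 0.09, adjusted p = 0.0146, and 0.105 without the strain term). *Mmp27*, the fourth tested gene of the cluster, had a log2FC of -0.09 (SE 0.11, adjusted p = 0.515).

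Proteoglycanases and procollagen processing enzymes did not share a direction. *Adamts5* measured 40.6, 271 and 922 CPM in females and 75.9, 576 and 1162 CPM in males (lowest, median, highest). Males were higher in 51 of 59 strains, and the log2FC was -0.94 (SE 0.15, adjusted p = 3.70e-07). *Adamts1*, which lies beside *Adamts5* on chromosome 16 and also cuts proteoglycans, had a log2FC of -0.53 (SE 0.10, adjusted p = 8.44e-06). *Adamts9* (-0.30) was lower in females as well, whereas the related *Adamts8* (1.35), *Adamts15* (0.77) and *Adamts20* (0.84) were higher, and *Adamts4* was not past the threshold (-0.15, SE 0.10). Among the enzymes that remove the amino-terminal propeptide of procollagens, *Adamts2* was lower in females (log2FC -0.44, SE 0.11, adjusted p = 5.03e-04), while *Adamts14* (0.20) and *Adamts3* (2.65) were higher. *Adamts6* (-0.28, SE 0.10, adjusted p = 0.0118) and *Adamts7* (-0.20, SE 0.09, adjusted p = 0.0380) were lower in females by small amounts. *Adamts10* (-0.09), *Adamts12* (0.20, adjusted p = 0.0611), *Adamts16* (0.0046) and *Adamts17* (0.22) did not pass the threshold, and neither did *Mmp11* (-0.11), *Mmp17* (0.01), *Mmp24* (-0.17) and *Mmp25* (0.34). Without the strain term *Adamts14*, *Adamts6* and *Adamts7* missed the threshold (adjusted p = 0.0860, 0.0618 and 0.136).

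Higher in females was led by *Adamts3* and *Adamts18*. *Adamts3*, known for its part in activating the lymphatic growth factor VEGF-C, measured 0.259, 1.72 and 5.56 CPM in females and 0, 0.224 and 1.66 CPM in males. Females were higher in 58 of 59 strains and 31 females lay above the highest male, with a log2FC of 2.65 (SE 0.16, adjusted p = 4.02e-24). Only 17 of its males, against 56 females, were over the filter cutoff. It thus entered the test through the sex where it is higher, and its call is not independent of the filter. *Adamts18* measured 0.736, 4.97 and 36.04 CPM in females and 0.548, 1.08 and 3.75 CPM in males, and the female was higher in 59 of 59 strains (log2FC 2.39, SE 0.18, adjusted p = 3.98e-18). The highest male library for both genes was the one labelled NZW/LacJ, whose Y-linked signal goes against its label. *Adamts19* (log2FC 1.52, SE 0.12), *Adamts8* (1.35, SE 0.15) and the membrane-type *Mmp16* (1.28, SE 0.14) were low in both sexes, with female means of 1.26, 1.97 and 1.36 CPM.

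The membrane-type MMPs *Mmp15* and *Mmp14* had higher levels and were higher in females. *Mmp15* measured 15.95, 54.5 and 135.6 CPM in females and 13.6, 30.2 and 55.0 CPM in males, and 29 females lay above the highest male. Its log2FC was 0.94 (SE 0.09, adjusted p = 2.34e-13), with the female higher in 56 of 59 strains. *Mmp14* averaged 110.9 ± 34.7 CPM in females and 74.6 ± 24.1 CPM in males and was higher in the female of 55 of 59 strains (log2FC 0.60, SE 0.06, adjusted p = 1.28e-12). *Mmp2*, whose precursor MMP14 activates, did not pass the threshold (146 ± 65.4 and 137.7 ± 57.95 CPM, log2FC 0.10, SE 0.09, adjusted p = 0.363), but it did when libraries were scaled by their totals (log2FC 0.21). *Mmp9*, the other gelatinase, had a log2FC of 0.14 (SE 0.12, adjusted p = 0.313). *Mmp28*, known as epilysin, and *Mmp19* were lower in females (-0.50, SE 0.10, and -0.34, SE 0.09), and the membrane-anchored *Mmp23* was higher (0.14, SE 0.05, adjusted p = 0.0186, and 0.0507 without the strain term).

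The inhibitors differed among themselves. *Timp4* measured 4.99, 88.1 and 506 CPM in females and 29.3, 160 and 505 CPM in males. It was the higher of the pair in the male of 45 of 59 strains, and the log2FC was -1.04 (SE 0.15, adjusted p = 4.72e-08). *Timp3* was lower in females by less, with 411 ± 165 and 483 ± 144 CPM (log2FC -0.27, SE 0.08, adjusted p = 0.00218). Neither *Timp1* (log2FC 0.15, SE 0.15, adjusted p = 0.412, and -0.06 without the strain term) nor *Timp2* (-0.02, SE 0.08, adjusted p = 0.813, and 0.09 with library totals) passed the threshold.

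**Figure D2:**
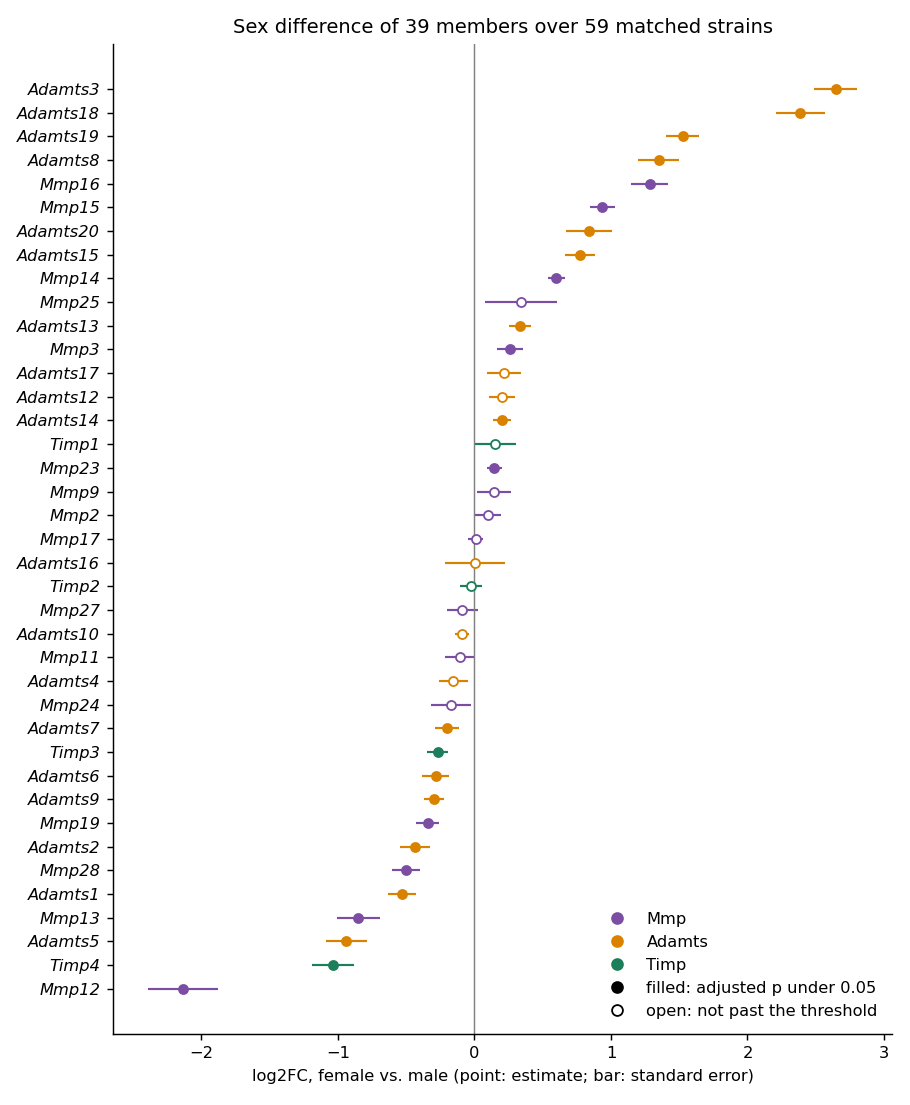
Log2FC (female vs. male) of the 39 tested members with its standard error over 59 strains, coloured by family and filled where the adjusted p was under 0.05. *Mmp12* lies farthest to the left at -2.14 and *Adamts3* farthest to the right at 2.65, and members of each family stand on both sides of 0.

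**Figure D3:**
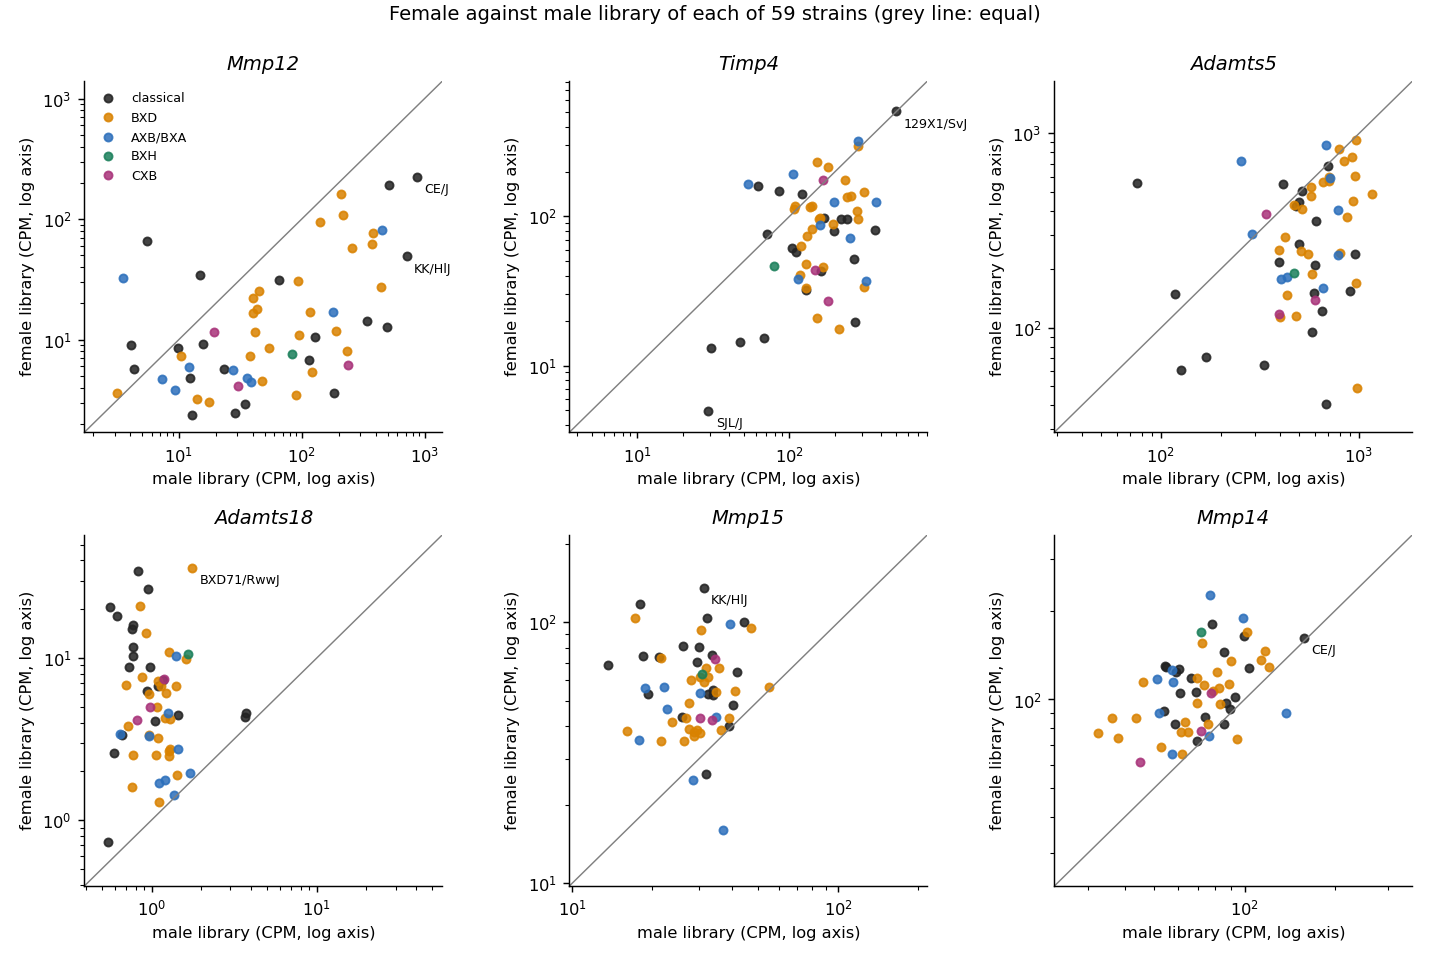
Female against male CPM of 6 members on log axes, a point per strain (n = 59), coloured by strain family, with a grey line at equal values. *Mmp12*, *Timp4* and *Adamts5* lie mostly under the line, with the female higher in 6, 14 and 8 strains, while *Adamts18*, *Mmp15* and *Mmp14* lie mostly above it.

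Some lists of cell type markers differed between the sexes as well. All 9 mammary epithelial markers were higher in females, with a mean log2 CPM of 2.60 to 7.41 in females and of -3.48 to 5.09 in males. The highest males were NZW/LacJ (5.09) and PL/J (4.51), which also had the highest *Adamts18* of the males, at 3.75 and 3.67 CPM. Leaving out PL/J, a choice made after seeing the data, left 12 members lower and 13 higher in females. All 5 adipocyte, all 8 macrophage and all 5 endothelial markers were lower in females, with differences in mean log2 CPM of -0.66 ± 0.80, -0.66 ± 0.78 and -0.44 ± 0.48 (SD, n = 59). Of 7 progenitor or fibroblast markers 2 were lower and 2 higher, as were 2 and 2 of 5 mural markers. Of 3 neutrophil markers 1 was lower, and of 3 skin markers 1 was lower and 2 higher. None of 6 lymphocyte and 4 skeletal muscle markers was called, beside 58.5% of all genes called. In bulk tissue, fewer cells of a type and less RNA per cell cannot be told apart. Across the 67 female libraries, *Adamts8* (Pearson's r = 0.64, rho = 0.66), *Adamts18* (0.62, 0.79), *Mmp15* (0.60, 0.85) and *Adamts3* (0.56, 0.62) rose with the mammary marker mean. The permutation p-values, adjusted over 780 member and marker list pairs, were 5.61e-05 for *Adamts8*, *Adamts18* and *Adamts3* and 0.00228 for *Mmp15*. Without the 2 libraries farthest from the median on the marker scale, r was 0.68, 0.84, 0.83 and 0.70 in that order, and r was the same without the libraries labelled BXD34/TyJ and BXD69/RwwJ female, which go against their label. In females 9 members were called with a positive and 6 with a negative r, the lowest being *Timp4* (-0.43). In males 8 members were called with a negative r, from *Mmp13* (-0.27) to *Adamts5* (-0.43), and *Adamts18* alone with a positive one (r = 0.28, rho = -0.04). The share of all genes called with this list was not computed, so the counts show nothing particular to the members. The r of *Adamts18* in males became -0.14 without the 2 farthest libraries and 0.11 (adjusted p = 0.457) without the library labelled NZW/LacJ male, so that relation rests on them. The part of the mammary gland in the sex differences was not tested.

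*Mmp12* rose with the macrophage markers in both sexes (r = 0.86 and rho = 0.89 in 74 male libraries, r = 0.72 and rho = 0.71 in 67 female libraries, adjusted permutation p = 5.61e-05 in each). Without the 2 farthest libraries r was 0.85 and 0.76. *Timp1* did so in males (r = 0.78, rho = 0.85) and had r = 0.26 in females (adjusted permutation p = 0.071), and *Mmp14* had r = 0.73 in males and 0.31 in females. The difference between the sexes in these correlations was not tested. The highest *Mmp12* in any female library, 389 CPM, was in the library labelled BXD69/RwwJ, which goes against its label.

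Differences between strains were about as common among the members as among all genes. In the model of the sex comparison, with the female and male library as the 2 values of a strain, 31 of 39 members passed the F test over strains (79.5%, beside 75.8% of all genes). The strongest was *Adamts13*, the protease that cleaves von Willebrand factor, with F = 8.05 (adjusted p = 1.78e-12), above 97.5% of all genes. It was lowest in 129X1/SvJ, at 3.25 CPM in the female and 3.29 CPM in the male, and highest in C3H/HeJ, at 84.4 and 60.7 CPM. I/LnJ followed with 46.5 and 72.9 CPM. The progenitors of the BXD lines also stood apart, with 49.2 and 26.1 CPM in DBA/2J against 15.1 and 9.31 CPM in C57BL/6J, and the BXD libraries ran from 5.37 to 68.9 CPM in females and 5.47 to 46.7 CPM in males. The 3 male BXH libraries, from lines of C57BL/6J and C3H/HeJ descent, had 29.1, 36.2 and 71.7 CPM. AXB/BXA libraries, from lines of A/J and C57BL/6J descent, reached 65.6 CPM in females and 45.7 CPM in males. A/J itself had 17.4 CPM in the female and 11.7 CPM in the male. By edgeR's F test over strain families, *Adamts13* did not pass (adjusted p = 0.175 in males and 0.900 in females). Inheritance from the progenitors was not tested. *Adamts13* was also higher in females (log2FC 0.33, SE 0.08, adjusted p = 4.25e-04), a call lost without the strain term (adjusted p = 0.109).

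A single strain decided the result for *Adamts15*, a proteoglycanase. CBA/J had 302 CPM in the female and 144 CPM in the male library, whereas the highest values in the other strains were 61.9 CPM in females (KK/HlJ) and 37.7 CPM in males (AKR/J). The F test gave 3.93 (adjusted p = 1.89e-06) with CBA/J and 1.07 (adjusted p = 0.403) without it. The sex difference of *Adamts15* had a log2FC of 0.77 (SE 0.11) both with and without CBA/J. *Mmp24*, a membrane-type MMP known from the nervous system, had isolated high libraries of a single sex. The PL/J male had 13.8 CPM and the PL/J female 0.473 CPM, and the BXA24/PgnJ male (15.8 CPM) and the BXD27/TyJ female (10.2 CPM) have no partner library in the series used here. Outside those strains no library exceeded 2.39 CPM, the female CXB11/HiAJ value, and its male had 1.605 CPM. Without PL/J the F test of *Mmp24* still passed (F = 4.16, adjusted p = 8.14e-07). Its sex log2FC of -0.17 became -0.04 without PL/J, and -0.52 (adjusted p = 0.0479) without the strain term.

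*Mmp12* had F = 4.15 (adjusted p = 7.58e-07) and ran from 3.59 and 3.12 CPM in the female and male of BXD40/TyJ to 224 and 873 CPM in CE/J, 164-fold between the strain means. KK/HlJ, with 49.2 and 713 CPM, shows how far the sexes of a strain could lie apart. *Timp4* was highest in 129X1/SvJ, at 506 and 505 CPM, and lowest in SJL/J, at 4.99 and 29.3 CPM (F = 2.27, adjusted p = 0.00248). *Timp1* peaked in the SJL/J male at 20.3 CPM, with 3.29 CPM in the SJL/J female. *Mmp9* was at 21.2 and 23.3 CPM in AXB13/PgnJ and at 1.95 and 0.638 CPM in KK/HlJ (F = 3.21). The 8 members that did not pass were *Mmp15*, *Mmp11*, *Adamts2*, *Adamts20*, *Adamts10*, *Adamts1*, *Adamts5* and *Mmp28*. *Mmp15*, with its marked sex difference, had the lowest F of the members at 1.07 (adjusted p = 0.402).

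**Figure D4:**
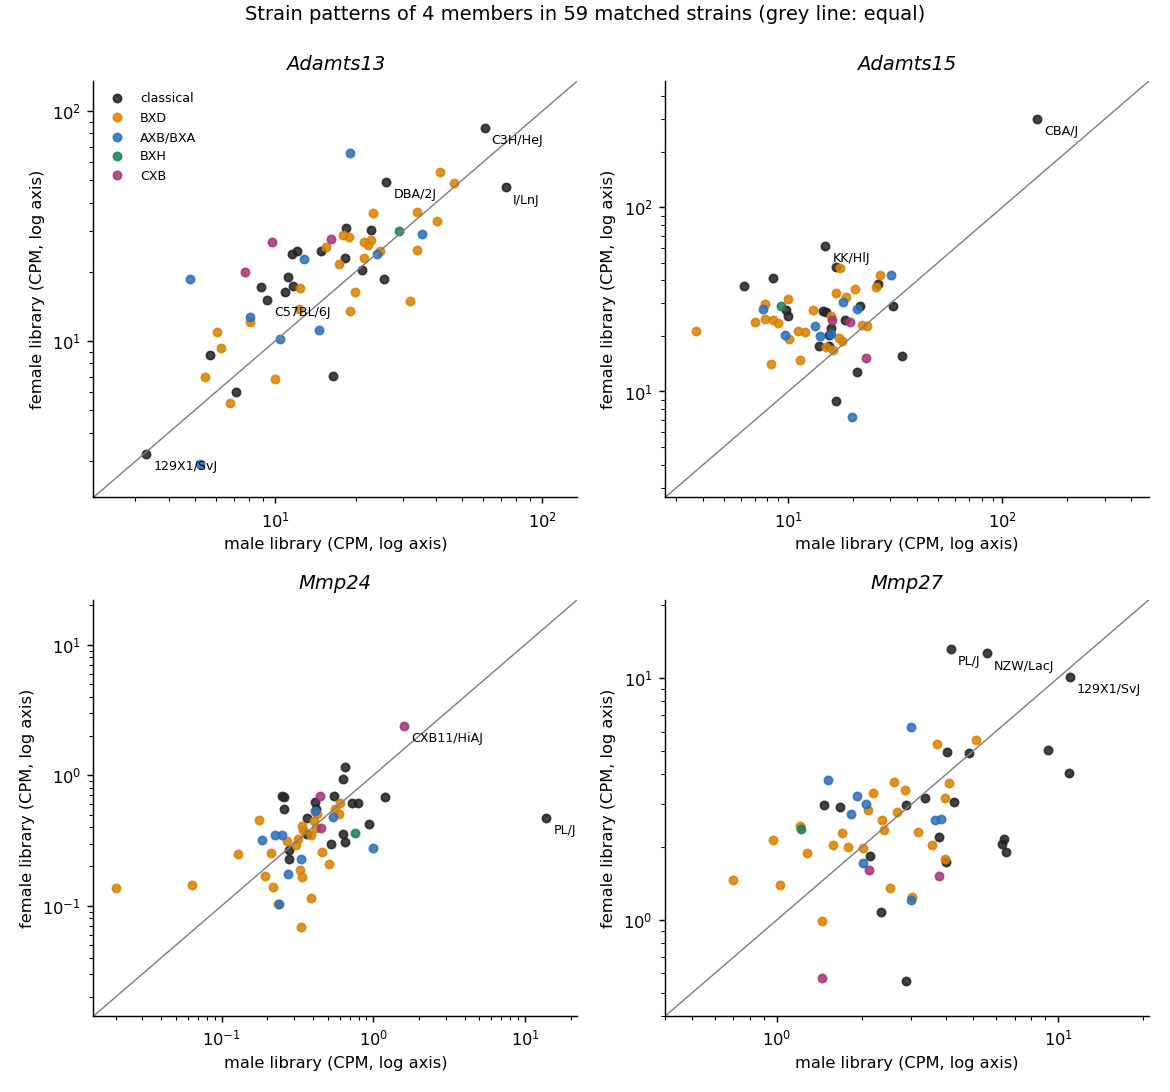
Female against male CPM of *Adamts13*, *Adamts15*, *Mmp24* and *Mmp27* on log axes in 59 strains, coloured by family, with a grey line at equal values (values under 0.02 are drawn at 0.02). *Adamts13* extends along the line from 129X1/SvJ to C3H/HeJ, whereas CBA/J stands alone in *Adamts15* and the PL/J male stands alone in *Mmp24*.

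The female and male libraries of a strain were then correlated for each member over the 59 strains, with permutation p-values adjusted over all 16765 genes. The correlation was positive and called for 23 of 39 members (59%, beside 52% of all genes, whose median r was 0.30). The 5 highest were *Adamts13* (r = 0.78, rho = 0.77), *Mmp9* (0.54, 0.50), *Mmp3* (0.53, 0.52), *Mmp12* (0.53, 0.53) and *Mmp17*, a membrane-anchored MMP (0.53, 0.51). Without the 2 strains farthest from the median, their r was 0.74, 0.46, 0.49, 0.46 and 0.53. The 5 lowest were *Adamts18* (r = -0.09), *Mmp15* (-0.01), *Adamts20* (0.11), *Mmp25* (0.12) and *Mmp11* (0.14), none of them called. *Adamts18* and *Mmp15* are also among the members with large sex differences. *Adamts15* had r = 0.38 but rho = 0.11, and r = 0.07 without the 2 farthest strains, so its relation rests on those. Among the inhibitors r was 0.44 for *Timp4*, 0.41 for *Timp3*, 0.32 for *Timp1* and 0.25 for *Timp2*, and only *Timp2* was not called. On the log2(TPM + 0.1) scale *Timp2* had r = 0.53 and was called (adjusted permutation p = 0.000144). *Timp4* was not called by rank (rho = 0.25, adjusted permutation p = 0.0839), and without the 2 farthest strains its r was 0.26.

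Strain families were compared within each sex by edgeR's F test on the same 16765 genes. In males 3 of 39 members passed (13.1% of all genes did) and in females 2 of 39 (4.67% of all genes). *Mmp27*, a little-studied stromelysin-like MMP, passed in both sexes, as did 2.22% of all genes (adjusted p = 1.43e-04 in males and 0.0387 in females). In males its median was 4.16 CPM in the classical strains, with a range of 1.47 to 10.99, against 2.46 CPM in BXD, 2.07 in AXB/BXA, 1.21 in BXH and 2.12 in CXB. In females the median was 2.995 CPM in classical strains and 2.30 in BXD, with ranges that overlapped. The highest *Mmp27* values were all in classical strains, among them 129X1/SvJ (10.1 CPM in the female, 10.99 in the male), the MA/MyJ male (10.97), the PL/J female (13.2) and the NZW/LacJ female (12.6). In males alone, *Timp3* (adjusted p = 0.0305) had a median of 401.5 CPM in classical strains and 503 CPM in BXD, and *Mmp24* passed as well (adjusted p = 0.0396) with its isolated high libraries. In females alone, *Adamts16*, a low-level ADAMTS, had a median of 1.59 CPM in BXD and 0.644 CPM in classical strains (adjusted p = 0.0103). With limma-voom the calls in females were lost (adjusted p = 0.438 for *Mmp27* and 0.170 for *Adamts16*), as was that of *Mmp24* in males (0.0985), while *Mmp27* (0.00497) and *Timp3* (0.0294) still passed in males.

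Whether the sex difference was the same in BXD as in the other strains was asked by an interaction term over the 26 BXD and 33 other matched strains. No member and none of the 16765 genes passed (0%) with edgeR, and none did with limma-voom. At an unadjusted p under 0.05 there were 0 members with either tool, and 393 genes with edgeR and 422 with limma-voom. The largest difference among the members was that of *Adamts16*, with a log2FC higher by 0.74 in BXD (SE 0.40, adjusted p = 0.9997).

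Members also moved with each other across libraries. Over the 741 pairs of tested members, 265 were positively correlated in males and 261 in females by permutation p-values adjusted over 1482 tests, which is 35.8% and 35.2% of the pairs. As many as 20.4% and 22.3% of the pairs of all genes reached the same positive r. Negative correlations were called for 13.8% of the member pairs in males and 10.3% in females, beside 20.5% and 22.1% of all gene pairs. In both sexes 188 pairs were positive and 48 negative, and 4 had opposite signs. The shares of all gene pairs called in both sexes were not computed, so these counts show nothing particular to the members. The closest pair was *Mmp2* and its inhibitor and activation partner *Timp2* (r = 0.87 and rho = 0.87 in males, r = 0.88 and rho = 0.89 in females, adjusted permutation p = 6.53e-05). *Mmp14*, the third component of the proMMP2 activation complex, followed *Timp2* with r = 0.77 in males and 0.54 in females. *Adamts2* rose with *Adamts5* (0.76 and 0.84), *Adamts12* (0.75 and 0.72), and *Mmp28* (0.69 and 0.80). *Adamts5* rose with *Timp4* (0.67 and 0.83) and with its neighbour *Adamts1* (0.62 and 0.81). Among the chromosome 9 genes, *Mmp12* and *Mmp3* had r = 0.48 in males and 0.34 in females, while *Mmp12* and *Mmp27* had 0.08 and 0.06. *Adamts15* and *Adamts8*, neighbours elsewhere on chromosome 9, were among the pairs of opposite sign (-0.32 in males, 0.30 in females). All of these values share libraries and their scaling. Without the 2 female libraries that go against their label, r moved by more than 0.2 in 74 female pairs, among them *Adamts14* and *Mmp15* (0.65 to 0.02) and *Mmp12* and *Mmp27* (0.06 to 0.27), while *Mmp2* and *Timp2* had 0.90 and *Mmp14* and *Timp2* 0.46. Without the male one, r moved that far in 1 pair.

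The members followed different cell type markers, but a member could follow more than a single list. *Timp2* and *Mmp2* followed the progenitor and fibroblast markers (r = 0.89 and 0.75 in males, 0.85 and 0.85 in females), and *Adamts16* did so too (0.63 and 0.75). *Adamts7*, a protease known from vascular smooth muscle, followed the mural markers (0.82 in males, 0.75 in females). In males it also followed the endothelial markers, with the highest r of the members there (0.80). *Timp3* followed the endothelial markers (0.67 and 0.83). *Mmp28* and *Timp4* followed the adipocyte markers more in value in females (0.90 and 0.78) than in males (0.60 and 0.50), a difference that was not tested. The highest r with the adipocyte markers in males was that of *Adamts2* (0.61). *Mmp25*, a leukocyte membrane-type MMP, followed the B and T lymphocyte markers (r = 0.93 in males, 0.87 in females) and ran against *Mmp28* (-0.64 and -0.68) and *Adamts2* (-0.64 and -0.63). The lymphocyte marker mean ranged from -1.50 to 7.10 in male and from -0.67 to 7.42 in female libraries of the 59 strains (log2 CPM), and the inguinal lymph node lies within this depot. How much of the spread of *Mmp25*, from 0.301 to 18.5 CPM in females, comes with the node was not tested. Without the libraries that go against their label r was 0.52 for *Mmp28* with the adipocyte markers in males and 0.71 for *Adamts7* with the mural markers in females. All correlations of this paragraph had an adjusted permutation p of 0.000102 or lower.

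**Figure D5:**
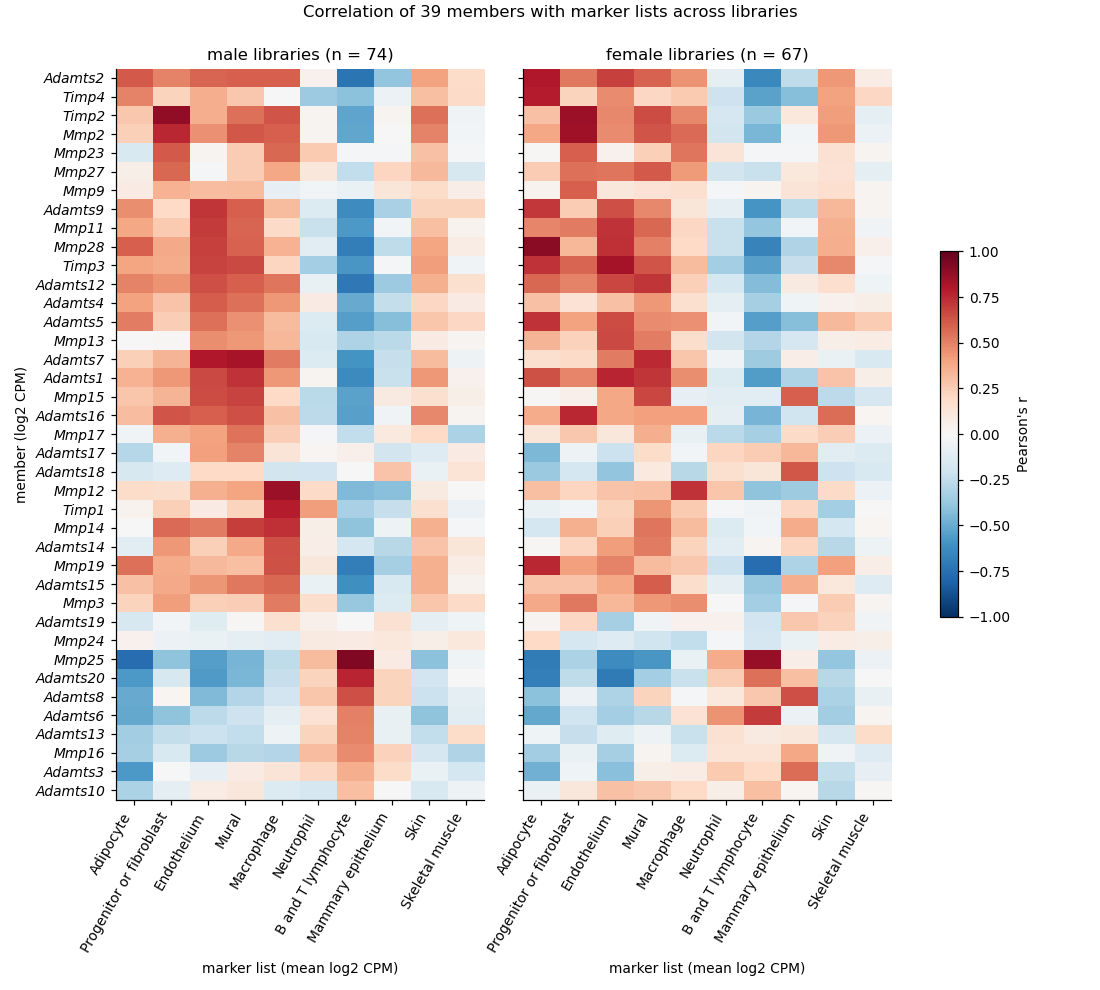
Pearson's r of each tested member (rows) with the mean log2 CPM of 10 marker lists (columns) across 74 male and 67 female libraries. *Mmp25* is red under B and T lymphocytes, *Timp2* and *Mmp2* under progenitors or fibroblasts and *Mmp12* under macrophages in both sexes, whereas *Adamts8*, *Adamts18*, *Mmp15* and *Adamts3* are red under mammary epithelium in females.

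Other genes of the system were read in the same sex test. Of 25 tested activators, inhibitors and related surface proteases, 10 were lower and 6 higher in females (64% called, beside 58.5% of all genes). *Lrp1*, the receptor that clears protease and inhibitor complexes, had a log2FC of -0.62 and *Reck*, a membrane-anchored MMP inhibitor, one of 0.53. Of 7 ADAMTS-like genes, which encode ADAMTS-related proteins without a protease domain, *Adamtsl2* (-1.16) and *Adamtsl3* (-0.65) were lower and *Papln* (2.41), *Thsd4* (2.06) and *Adamtsl1* (0.36) higher in females. Of 23 matrix substrates, 14 were lower (30% of all genes were) and 2 higher in females (28.5% of all genes). The basement membrane genes *Hspg2* (-0.83), *Col4a1* (-0.69) and *Nid1* (-0.59) were among the lower ones, with the proteoglycan gene *Lum* (0.55) and the elastin gene *Eln* (0.23) as the higher ones.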

How the data were processed

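RNA-seq of iWAT from 67 female and 74 male mouse libraries was used, and the library labels gave sex and strain. Per the authors, reads were quantified with kallisto 0.46.1 (mm10, Ensembl transcripts) and summed to genes, which gave the deposited estimated counts and the deposited TPM values (scaled for transcript length and library size). Estimated counts (30.3% not whole) were rounded. Symbols came from GENCODE M21 (35856 of 36558 genes). The members and gene lists were chosen with earlier results of these data known.

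Genes were filtered with filterByExpr (16765 kept), scaled by TMM and tested with edgeR 4.0.16 (glmQLFit, glmQLFTest) under ~ Strain + Sex in 59 strains with both sexes, and under ~ Family in each sex, with Benjamini-Hochberg adjustment at 0.05. CPM values use the same scaling. Replicate numbers do not pair libraries, so the strain is the block: deviations from the sex means correlated by 0.41 on average between the sexes within strains (over 0.1 in 45 of 59 strains), against -0.01 between strains. Correlations used log2 CPM (prior count 2) and two-sided permutation tests with 100000 resamples, whose smallest p is 1e-05. Female-male correlations were adjusted over all genes in place of the members alone, a change from the plan. Alternatives were DESeq2 1.42.0, limma 3.58.1 (voom, and log2(TPM + 1) and log2(TPM + 0.1)), RLE or library-total scaling, other filters, no strain block, and left-out strains. Scripts were tested on simulated data. A strain has 1 library per sex, and p-values measure only the spread between these libraries.

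Named members were the *Timp* genes, the 10 largest called sex log2FC, the 8 widest spreads over strains, the 8 highest TPM, the 5 highest and 5 lowest female-male r, and those called for family in both sexes. *Adamts15*, *Mmp24* and the promoter windows were singled out after their values were seen, as were other members given for completeness of a role.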

Additional observations from a re-analysis of the deposited data

Results flagged for a closer look

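In each family group of 4 to 10 libraries, a library was looked for whose gap to its nearest neighbour took up an unusually large part of the group's range (Dixon's criterion, 0.493 for 9 libraries). The AXB/BXA females (n = 9) were the only such group, and 9 of 39 members (23.1%) met the criterion there, beside 17% of all 16765 genes tested. The criterion stands for about 1 in 20 only where values are normally distributed, which was not tested for these CPM values. The share to compare with is thus the 17% of all genes. Genes of a library are not independent, and 5 of the 9 came from the AXB13/PgnJ female.

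The AXB13/PgnJ female stood highest for 5 members, with 338 CPM of *Mmp2* (next 181), 570 CPM of *Timp2* (next 290.2), 98.9 CPM of *Mmp15* (next 56.6), 10.3 CPM of *Adamts18* (next 4.57) and 3.21 CPM of *Mmp17* (next 2.33). The AXB19/PgnJ female had 65.6 CPM of *Adamts13* (next 29.3). The BXA8/PgnJ female had 81.5 CPM of *Mmp12* (next 32.7). The AXB12/PgnJ female had 5.93 CPM of *Adamts20* (next 1.87), and the AXB5/PgnJ female had 2.65 CPM of *Adamts16* (next 1.31). AXB19/PgnJ, AXB19a/PgnJ and AXB19b/PgnJ are related substrains and not independent strains. The sex, strain, family and correlation tests counted them as separate strains, and none was run with them merged.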

How the results depend on the processing

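The counts of members lower and higher in females stayed within 1.5 times of 12 and 13 under each of 12 alternatives. Leaving out each of 12 strains in turn gave 11 to 12 lower and 13 higher. Without the replicate block (the strain term), 11 members were lower and 9 higher. Of the 25 called members, 19 kept their direction and call under all alternatives run for them, and *Adamts6*, *Adamts7*, *Adamts13*, *Adamts14*, *Mmp3* and *Mmp23* lost the call under at least one of them. *Adamts12*, *Adamts17*, *Mmp2*, *Mmp9* and *Mmp24* gained a call under at least one. The cause was not tested. The sign turned only for members that were not called. With library totals the log2FC was 0.018 for *Adamts10*, 0.019 for *Mmp27* and 0.086 for *Timp2*. *Mmp11* had 0.091 with log2(TPM + 1) and 0.090 with log2(TPM + 0.1). *Timp1* had -0.065 without the replicate block. *Mmp17* had -0.0087 without a filter and -0.0094 without PL/J. *Adamts16* had -0.12 with DESeq2, -0.0032 with RLE size factors, -0.014 without a filter, -0.034 without NZW/LacJ, -0.00061 without CBA/J, -0.027 without PL/J and between -0.060 (without BXD40/TyJ) and 0.045 (without BXD45/RwwJ) when a strain was left out in turn. The strain call was made for 27 to 35 members. Leaving out the libraries that go against their label, added after seeing the data for the marker lists, gave 181 called member and marker list pairs in females (172 with them) and 187 in males (193 with them). The share of such calls over all genes was not computed. For the strain family in females, limma-voom called 0 members in place of 2 (2 to 3 with the other alternatives), and 0 called members there does not show that families are alike. CBA/J and PL/J were left out as alternatives chosen after seeing the data. Depth limits the members under 1 TPM, for which 3 counts were up to 0.479 CPM by library total alone, in the shallowest library. With the TMM scaling of the CPM values, 3 counts in that library were higher, since 31 counts of *Mmp20* were 8.71 CPM there. Fold changes on the log2(TPM + pseudocount) scale understate those of low members.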

Other observations

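Some values belong to no comparison. *Timp1* and *Mmp27* were at 0 counts in the BXD34/TyJ female library only, the library that also held the highest *Mmp20*, *Mmp7* and *Mmp21*. *Mmp13* was highest in the PL/J female (8.05 CPM, with 2.81 CPM in the PL/J male) and the A/J male (7.63 CPM, with 1.01 CPM in the A/J female), so its highest libraries of each sex came from different strains. SM/J had the highest strain mean of *Mmp3*, *Adamts4*, *Mmp16*, *Adamts17*, *Adamts19* and *Adamts20*, while CXB11/HiAJ had the highest of *Mmp19* and *Mmp28* and the lowest of *Mmp14*, *Mmp17*, *Mmp23*, *Mmp27*, *Adamts6* and *Adamts10*. In SM/J the means of *Mmp16* (7.45 CPM in the female, 0.246 in the male), *Adamts20* (6.36 and 0.386) and *Adamts19* (4.83 and 0.702) came mostly from the female library. SM/J and CXB11/HiAJ were singled out after the values were seen and were not tested. How often they were the extreme strain over all genes was not computed, so the lists show nothing particular to the members.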
